A study of Schizosaccharomyces pombe with 2 samples.

Results

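The RNAs described here are the earlier annotated antisense long non-coding RNAs (lncRNAs) of fission yeast (Schizosaccharomyces pombe), as counted by direct RNA sequencing. Members are the SPNCRNA features with a number below 2000 that overlap, by at least 1 nt, a protein-coding feature on the opposite strand and no protein-coding feature on their own strand. Of the 12684 features in the deposited table, 7213 are SPNCRNA features, 1445 of these have a number below 2000, and 760 met the rule. The rule uses identifiers and positions and has no threshold on reads. SPNCRNA.82, SPNCRNA.98, SPNCRNA.128, SPNCRNA.214 and SPNCRNA.1343 were left out. Each lncRNA was paired with its sense gene, the coding feature on the opposite strand with which it shares the longest overlap.

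The series holds a single group, vegetative wt, with 2 biological replicates. The cells were haploid h- cells of genotype leu1-32, pat1-L95G::kanR, so both libraries carry the leucine marker and the pat1-L95G allele. Cultures grew for 2 days at 30 °C in EMM, a minimal medium. Total RNA was depleted of ribosomal RNA (rRNA) and 350 ng of it was polyadenylated in vitro, which lets RNAs that lack a poly(A) tail of their own enter the library. As there is no second condition, the comparisons below are between lncRNAs, between a lncRNA and its sense gene, and between the libraries.

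An antisense lncRNA is transcribed from the strand opposite a gene, so its sequence is complementary to part of the RNA of that gene. In fission yeast such RNAs are known to be made at low levels and to be removed by the nuclear exosome and the RNA interference machinery, and many lie opposite genes that are used in meiosis. Others are the hosts of small nucleolar RNAs (snoRNAs), the guides of ribosomal RNA modification. Mmi1, the RNA-binding protein that the study follows, removes meiotic RNAs from vegetative cells and recognises the hexamer UNAAAC.

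In a nanopore direct RNA library the RNA strand itself is read from its 3′ end, so the strand of each read is known. The libraries held 12871729 counts in replicate 1 and 12579850 in replicate 2, of which the 760 lncRNAs took 48622 (0.378%) and 42561 (0.338%). Levels are given in reads, in CPM (reads per 1000000 counts of the library) and, wherever different features are compared, in CPM per kb of feature length. Division by length raises a shorter feature against a longer one. Whether reads rise with feature length in these libraries was not tested. A count of 0 allows up to 3 reads, or 0.233 CPM (replicate 1) and 0.238 CPM (replicate 2). This limit and the intervals below cover counting error only. In a bulk culture, fewer cells with an RNA and less RNA per cell cannot be told apart.

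The state of the cells was first checked against marker genes. act1, which encodes actin, had 463 ± 1.62 CPM per kb (SD, n = 2) and cdc2, the cell cycle kinase, had 6.18 ± 0.424. The meiotic genes mei4, a transcription factor, spo5, an RNA-binding protein, and num1 (also named mcp5), the cortical anchor of dynein, held 12 and 10, 6 and 13, and 4 and 11 reads in replicates 1 and 2. These 3 meiotic genes were low in both libraries. mei2, the gene of the meiotic regulator Mei2, was not, with 755 and 707 reads and 14.2 ± 0.429 CPM per kb. The paper describes Mei2 in vegetative cells as kept low by ubiquitinylation of the protein, and protein was not measured here.

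Sequences of the most abundant lncRNAs and of lncRNAs opposite meiotic genes are shown first, because the results turn on them. They were read from the RefSeq genome ASM294v3, on which all 760 members have the same start and end as in the deposited table, and each is written 5′ to 3′ on the strand of the lncRNA. For SPNCRNA.1511 (chrII:2416542-2416742, minus strand) and SPNCRNA.1651 (chrII:3962699-3962859, plus strand), the stretch outside the sense gene is given, and for SPNCRNA.814 the snoRNA snR98 that lies within it (chrI:2330437-2330647, minus strand).
SPNCRNA.1511: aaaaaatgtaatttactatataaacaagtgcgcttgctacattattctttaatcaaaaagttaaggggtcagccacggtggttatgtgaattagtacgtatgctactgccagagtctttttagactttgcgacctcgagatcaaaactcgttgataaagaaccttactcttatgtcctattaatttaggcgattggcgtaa
SPNCRNA.1651: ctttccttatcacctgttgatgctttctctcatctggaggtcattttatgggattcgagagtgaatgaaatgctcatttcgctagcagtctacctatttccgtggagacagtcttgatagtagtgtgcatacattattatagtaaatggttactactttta
snR98 in SPNCRNA.814: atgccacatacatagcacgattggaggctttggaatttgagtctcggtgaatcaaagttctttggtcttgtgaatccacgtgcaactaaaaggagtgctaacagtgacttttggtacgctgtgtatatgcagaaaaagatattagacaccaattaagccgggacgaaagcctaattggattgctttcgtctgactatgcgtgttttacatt

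The next 3 stretches lie opposite the first 30 nt of a meiotic coding sequence, with the complement of the start codon in capitals. They belong to SPNCRNA.1644 on spo4 (chrII:3827178-3827207, minus strand), to SPNCRNA.904 on dmc1 (chrI:3382332-3382361, minus strand) and to tos1 (SPNCRNA.69) on rec7 (chrIII:1549040-1549069, plus strand).
SPNCRNA.1644: atttccgaaaggtaatagcatggaaagCAT
SPNCRNA.904: atcatcattcccctctgcgaattcttcCAT
SPNCRNA.69: agagtacttaacaattgggaaaatgttCAT

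The last is a stretch of 68 nt of SPNCRNA.1236 outside its sense gene eaf1 (chrIII:1860397-1860464, plus strand), with the matches to TNAAAC, the DNA form of UNAAAC, in capitals.
SPNCRNA.1236: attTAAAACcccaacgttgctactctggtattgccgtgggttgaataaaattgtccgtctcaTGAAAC

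The 760 lncRNAs were spread over the genome and long for their read counts. Chromosome I holds 342 of them, chromosome II 273 and chromosome III 145. They are between 147 and 5317 nt long, with a median of 1310 nt, and the overlap with the sense gene ranges from 1 to 4984 nt, with a median of 915 nt. They lie opposite 737 different sense genes, and 45 share their sense gene with another member. In all, 612 overlap 1 coding feature, 142 overlap 2 and 6 overlap 3. The coding sequence of the sense gene is reached by 649, whereas 111 stop short of it. RefSeq classes 757 as lncRNA, 2 as snoRNA (SPNCRNA.814 and SPNCRNA.1650) and 1 as ncRNA. A read may be counted in more than 1 feature of its strand where features overlap. For the 60 members that overlap another feature on their own strand, the reads may thus belong in part to that feature, and the other 700 are free of this.

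Nearly all members were read, and most of them rarely. At least 1 read was found for 684 of the 760 in replicate 1 and for 703 in replicate 2. Both libraries had a read for 666, neither had for 39, and 55 had reads in a single library. The median was 10 reads in replicate 1 and 9.5 in replicate 2. Over both libraries together, 215 members had 1 to 9 reads, 438 had 10 to 99, and 68 had 100 or more, of which 4 had 1000 or more. The 3 most abundant held 63.4% of all member reads in replicate 1 and 59.2% in replicate 2, so sums over the members describe these 3 and the medians below describe the rest.

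Per length, the members lay between the later annotated antisense lncRNAs and the coding genes. Their median level was 0.583 CPM per kb in replicate 1 and 0.562 in replicate 2. The 4623 antisense lncRNAs with a number of 2000 or above, chosen by the same rule on position, had a median of 0 in both libraries, with a read for 48.1% and 47.9% of them. The 486 earlier annotated lncRNAs that overlap no coding feature had medians of 0.666 and 0.670 CPM per kb, close to those of the members. Coding features had medians of 4.82 and 5.18, and the 53 snoRNA features had medians of 210 and 179. The sense genes of the members had medians of 3.51 and 3.66, and the 4415 coding features that are no main sense gene of a member had 5.12 and 5.55. Features are not replicates, so these medians are descriptions and were not tested.

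**Figure D1:**
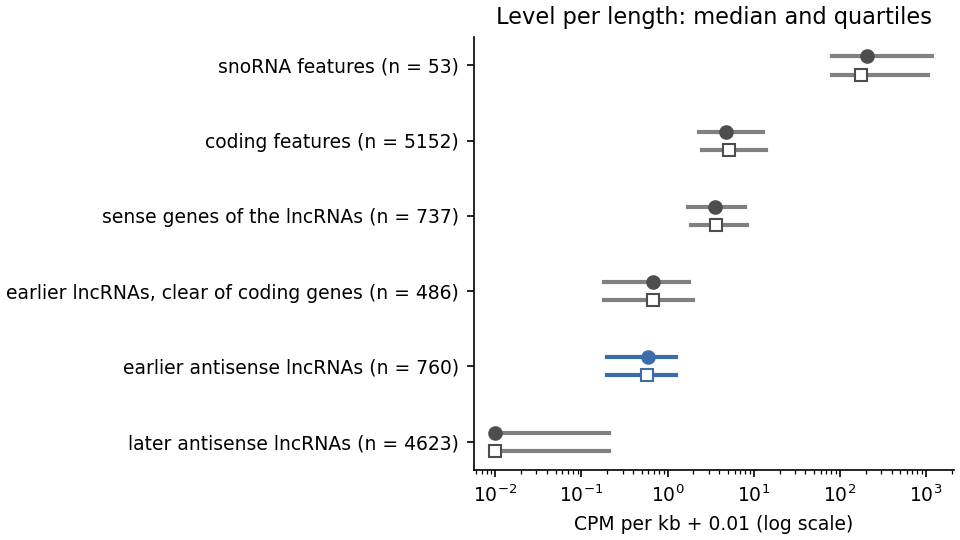
Level per length (CPM per kb, with 0.01 added, log scale) of 6 classes of feature; points are medians and bars span the quartiles over features, with filled circles for replicate 1 and open squares for replicate 2. The 760 earlier annotated antisense lncRNAs (blue) sit at 0.583 and 0.562 CPM per kb, far below coding features and above the later annotated antisense lncRNAs, whose median is 0.

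A group of 3 lncRNAs stood far above all other members, and all of them cover only the end of their sense gene. SPNCRNA.1511 (chrII:2416379-2416742) held 12168 reads in replicate 1 and 9480 in replicate 2. It lies opposite the end of ape2, an aminopeptidase gene, which held 640 and 691 reads. Its level was 2334 ± 372 CPM per kb (SD, n = 2) and ranked 54 among all 12684 features, against 14.7 ± 1.03 for ape2.

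SPNCRNA.814 (chrI:2330171-2330657) held 14241 and 11722 reads, opposite the end of cit1, the gene of mitochondrial citrate synthase, with 638 and 668. The snoRNA snR98 lies within SPNCRNA.814 and reads may be counted in both, so the level of SPNCRNA.814, 2093 ± 253 CPM per kb, is that of a region with a snoRNA. Per length, SPNCRNA.1511 was above SPNCRNA.814 in each library, although their mean levels did not differ beyond their SDs. SPNCRNA.1651 (chrII:3962699-3963115) held 4401 and 4001 reads, opposite the end of sdh8, which encodes an assembly factor of succinate dehydrogenase and held 65 and 99. At 791 ± 40.5 CPM per kb it was below the other two and above the fourth, and it is 417 nt long. All 3 stop short of the coding sequence of their sense gene. Only SPNCRNA.814 overlaps another annotated feature on its own strand.

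The fourth most abundant member, snoZ (SPNCRNA.659), is a host of several snoRNAs. It held 1881 and 1570 reads, or 71.3 ± 7.93 CPM per kb, and its feature contains 5 snoRNA features whose reads it may share. Its sense gene psf3, a subunit of the GINS complex of DNA replication, held 152 and 156 reads. The other members that overlap a snoRNA feature were SPNCRNA.617, with 18 and 19 reads, and SPNCRNA.1650, with 48 and 45. A snoRNA on the same strand thus went with very different read counts.

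The next members were lower by more than the replicate spread. SPNCRNA.568, which lies inside ade7, a gene of purine synthesis, held 486 and 452 reads and 30.1 ± 1.05 CPM per kb. It was at almost the same level as its sense gene, as ade7 held 665 and 616 reads and 31.3 ± 1.19 CPM per kb. SPNCRNA.1317, inside the maltase gene mal1, held 134 and 105 reads and 25.7 ± 4.0 CPM per kb, and SPNCRNA.1236, at the end of eaf1, a transcription elongation factor gene, held 220 and 177 reads and 25.3 ± 3.47. These last 2 did not differ beyond their spread. mal1 held 88 and 108 reads and had another antisense lncRNA, SPNCRNA.1318, with 240 and 208 reads, just upstream of SPNCRNA.1317.

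The members ranked 8 to 12 per length were between 9.81 and 19.7 CPM per kb. They were SPNCRNA.1371 on rsn1, with 288 and 366 reads, SPNCRNA.1568 on yml6, a gene of a mitochondrial ribosomal protein, with 112 and 117, SPNCRNA.1042 on pxr1, with 306 and 232, SPNCRNA.800 on cka1, the catalytic subunit of casein kinase 2, with 82 and 112, and SPNCRNA.872 on eta2, with 354 and 292. Of their sense genes, yml6 (228 and 201 reads) and cka1 (492 and 462 reads) were the higher strand of their pair, and rsn1 (101 and 68), pxr1 (89 and 89) and eta2 (133 and 87) the lower.

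Next, the lncRNAs were compared with their sense genes within each library, where library scaling cancels. The antisense share of a pair is the level of the lncRNA per length over the sum of the levels of lncRNA and sense gene. Each lncRNA was counted over its whole feature, also where it lies outside the sense gene. The share is thus not limited to the stretch where the features overlap. In the 751 pairs with at least 10 reads, its median was 13.3% in replicate 1 and 11.8% in replicate 2. The quartiles ran from 2.77% to 34.0% and from 2.89% to 31.1%. The sense gene was thus the stronger strand in most pairs. The lncRNA was above its sense gene in 117 pairs in replicate 1 and in 114 in replicate 2. It was above in both libraries in 101 pairs (13.4%), in a single library in 29 and in neither in 621. Over the earlier and later annotated antisense pairs together, 2.6% of 5310 pairs were above in both, and over the 4559 later annotated pairs alone 37 were (0.812%). The shares of the earlier annotated members were not tested against these. With reads not divided by length, the median share of the members was 9.25% over the mean shares, and 92 pairs were above in both libraries.

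The 101 pairs with the lncRNA above its sense gene per length in both libraries are described next. They were chosen by the balance of the strands, which sets the direction of any difference in level, so the levels are given as a description. In these pairs the median level of the lncRNA was 2.19 CPM per kb, against 0.461 in the other pairs, and that of the sense gene was 0.530, against 4.24. Among the 68 members with 100 or more reads, 43 were in these pairs. The sense gene held at most 9 reads over both libraries in 31 of them and was listed at 0 in both in 6. The lncRNA covered the whole sense gene in 30 and stopped short of its coding sequence in 18. In 2 of the pairs the lncRNA itself had fewer than 10 reads.

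**Figure D2:**
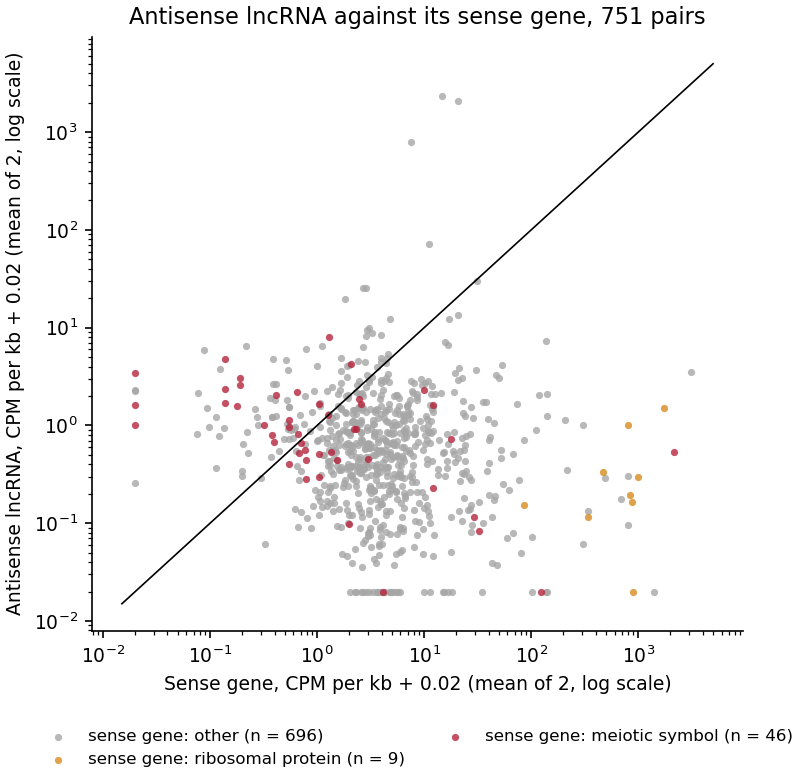
Mean level of each antisense lncRNA against that of its sense gene (CPM per kb with 0.02 added, mean of 2 libraries, log scales) for 751 pairs with at least 10 reads, coloured by the name of the sense gene; the line marks equal levels. Most pairs lie below the line, 101 lie above it in both libraries, the 9 pairs on ribosomal protein genes all lie far below it, and the 3 points at the top are SPNCRNA.1511, SPNCRNA.814 and SPNCRNA.1651.

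Among the 10 pairs with the highest share of antisense and at least 100 reads, 7 had at most 2 sense reads in each library. SPNCRNA.1644 held 118 and 117 reads and covers the whole of spo4, a kinase gene needed for the second meiotic division, which was listed at 0 in both libraries. Against the limit of 3 reads per library for spo4, the lncRNA was at least 26.2-fold higher per length in replicate 1 and at least 26.0-fold higher in replicate 2. The exact 95% interval (Clopper-Pearson) of its share of the reads of the pair ran from 96.9% to 100% in each library. SPNCRNA.904, which covers all of dmc1, the gene of the meiotic strand-exchange protein, held 135 and 114 reads against 2 and 0. Here the interval ran from 94.8% to 99.8% in replicate 1 and from 96.8% to 100% in replicate 2.

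The same was found opposite genes without a meiotic name. SPNCRNA.1469 held 100 and 104 reads on SPBC28E12.02, which was listed at 0 in both, and was at least 21.1-fold and 22.0-fold higher. SPNCRNA.1671 held 54 and 70 reads on arp10, an actin-related gene also listed at 0, and was at least 10.1-fold and 13.1-fold higher. SPNCRNA.1278 held 172 and 185 reads against 2 and 0 on SPCC1840.13. In SPNCRNA.1537 on pal2 there were 66 and 57 reads against 2 and 1, and in SPNCRNA.728 on SPAC10F6.15 there were 79 and 93 against 1 and 1. All of these sense genes were near or at the counting limit in both libraries. The remaining places among the 10 highest shares were taken by SPNCRNA.1511, SPNCRNA.814 and SPNCRNA.1651, whose sense genes held between 65 and 691 reads per library.

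At the other end, some pairs with abundant sense RNA had no antisense reads. Those named here were picked for the lowest antisense shares and do not stand for all pairs with abundant sense RNA. Over the pairs, the level of the lncRNA was only weakly and inversely related to that of the sense gene. Spearman's rho was -0.158 in replicate 1 and -0.130 in replicate 2. No read was found for SPNCRNA.1376 inside tef103, a gene of translation elongation factor 1A, which held 27643 and 26734 reads. The 3 near-identical tef genes may share reads, so the sense count is uncertain. SPNCRNA.1465 on rps1601, a ribosomal protein gene with 9935 and 8888 reads, and SPNCRNA.92 inside pma1, the gene of the plasma membrane proton pump, with 8005 and 7628 reads, also had none. Nor had SPNCRNA.757 on ssc1 (4227 and 4409 reads) and SPNCRNA.639 inside mcp60 (3720 and 3669 reads), which encode mitochondrial chaperones. The share of antisense was under 1% in 124 pairs in replicate 1 and in 108 in replicate 2, and at least 90% in 30 pairs in each.

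Antisense reads were also counted per 1000 sense reads where the sense gene was abundant, and whether any of them are misassigned sense reads was not tested. In the 5 pairs with the most abundant sense genes there were 0.869 antisense reads per 1000 sense reads in replicate 1 and 1.03 in replicate 2. SPNCRNA.1234, which covers the whole of nmt1, a gene of thiamine synthesis, held most of these, with 109 and 120 reads against 50544 and 48783 on nmt1, or 2.16 and 2.46 per 1000. Outside these 5, the ratio was higher for SPNCRNA.1015 on rps1102, a ribosomal protein gene picked after its values were seen, with 20 and 24 reads against 6212 and 5844, or 3.22 and 4.11 per 1000. SPNCRNA.1376 on tef103 had none, where a count of 0 allows up to 0.109 and 0.112 per 1000 sense reads. The other 3 pairs were SPNCRNA.847 on nog2, with 1 and 3 reads against 22496 and 21818, SPNCRNA.1056 on mug106, with 6 and 10 against 23051 and 20570, and SPNCRNA.957 on tef102, with 5 and 3 against 15466 and 14490. In the last 3 pairs the sense gene overlaps another feature on its own strand that could share its reads.

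The sense genes were then grouped by name. A meiotic name (mug, meu, mcp, mde, spo, mei, rec or wtf with a number) was carried by the sense genes of 46 members. mcp60, a mitochondrial chaperone gene, was taken in by its name alone. Opposite these genes the median antisense level was 0.968 CPM per kb in replicate 1 and 0.737 in replicate 2, and the median share was 44.1% and 47.9%. The lncRNA was above its sense gene in both libraries in 19 of the 46 pairs (41.3%), against 101 of 751 over all pairs. The sense genes had medians of 0.854 and 0.804 CPM per kb, against 3.46 and 3.62 for the sense genes over all 760 members. With a single lncRNA per sense gene, a setting added after the data were seen, the count was 17 of 40, and over lncRNAs free of other features on their strand it was 13 of 39.

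The 9 members opposite genes of ribosomal proteins were at the other end. Their median level was 0.121 and 0.194 CPM per kb, and none was above its sense gene, whose medians were 859 and 798. Over the remaining 696 pairs, 82 (11.8%) had the lncRNA above in both libraries. These lists were compared by counts and medians only.

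Among the 8 meiotic pairs with the most antisense reads, the lncRNA was above in both libraries. They were picked by antisense reads, which favours this result. Among all 68 members with 100 or more reads, whatever the sense gene, 43 were above in both. Only 5 of the 8 had 100 or more reads, so these sets were cut at unlike read counts. SPNCRNA.1351 on mug2 held 123 and 118 reads against 28 and 26. SPNCRNA.1417 on meu18 held 127 and 107 against 46 and 43. In SPNCRNA.1663 on meu14, which encodes a protein of the forespore membrane, there were 50 and 59 against 2 and 3. In these pairs both antisense counts were above both sense counts, which the choice by antisense reads favours. The share of all pairs with this pattern was not counted. SPNCRNA.1045 on mug95 held 58 and 49 reads against 2 and 1, and SPNCRNA.815 on mug68 held 31 and 43 against 4 and 3. SPNCRNA.583 held 54 and 44 reads on mug27, a kinase gene listed at 0 in both, and was at least 17.3-fold and 14.1-fold higher. With spo4 and rec7, these make up the 8.

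The members opposite rec7 number 3. rec7 is a gene of meiotic recombination and held 1 and 5 reads. tos1 (SPNCRNA.69) held 55 and 40 reads, tos2 (SPNCRNA.131) held 38 and 29, and SPNCRNA.132 held 30 and 22. tos1 overlaps both of the others on its own strand, and SPNCRNA.1203, a longer feature of that strand that is no member, contains all 3. They may count some of the same reads, or reads of SPNCRNA.1203, and are not independent. Other genes of meiotic recombination differed in the balance of strands. rec11, a meiotic cohesin gene, had 30 and 29 sense reads against 32 and 34 of SPNCRNA.1180, which lies inside it, and a share of 76.7% and 78.3%. For rec12, the gene of the meiotic break-forming enzyme, SPNCRNA.760 held 22 and 13 reads against 11 and 10, and the share was 59.6% in replicate 1 and 49.0% in replicate 2, so the lncRNA was above in a single library.

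Genes used in meiosis under other names were chosen after their values were seen. SPNCRNA.1602 on hop1, a gene of the chromosome axis in meiosis, held 117 and 96 reads against 13 and 10. SPNCRNA.1397 on num1 held 11 and 18 against 4 and 11, and the exact 95% interval of its share of the reads ran from 44.9% to 92.2% in replicate 1 and from 42.3% to 79.3% in replicate 2. For num1 an excess of antisense reads was thus not detected in either library taken alone. SPNCRNA.566, which lies inside num1 and held 1 and 3 reads, overlaps SPNCRNA.1397 on the same strand and may share its reads. Among genes outside meiosis, also picked after their values were seen, SPNCRNA.1626 held 436 and 342 reads on mbx2, a transcription factor gene with 18 and 21, and SPNCRNA.1324 held 32 and 49 on fbp1, the gene of fructose-1,6-bisphosphatase, with 14 and 10.

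**Figure D3:**
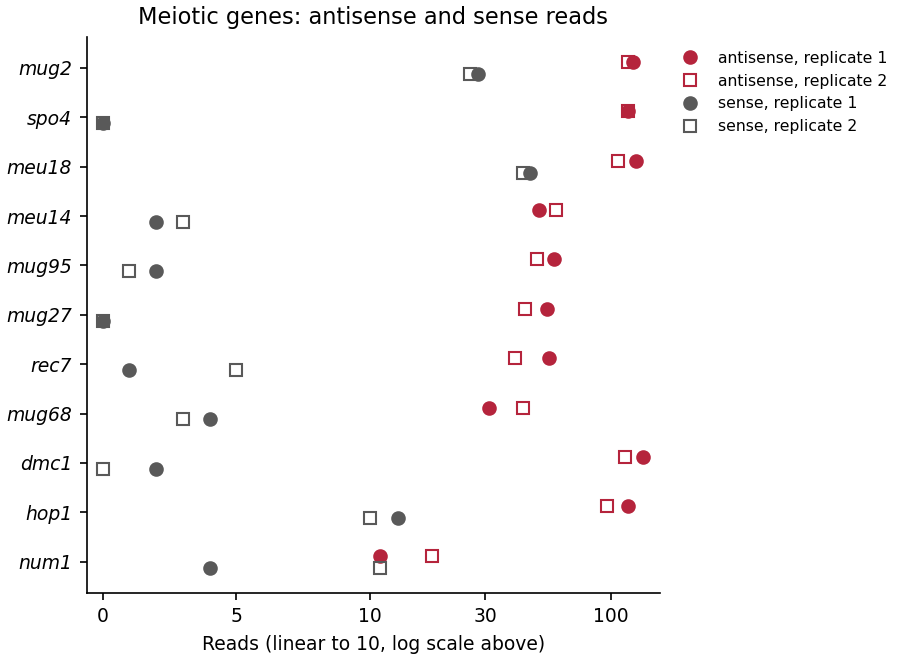
Reads of the antisense lncRNA (red) and of the sense gene (grey) in replicate 1 (filled circles) and replicate 2 (open squares) for 11 meiotic genes; the axis is linear to 10 reads and logarithmic above, and rec7 is shown with tos1. Antisense reads lie above sense reads within each library for all 11 genes, but for num1 (mcp5) the 11 antisense reads of replicate 1 equal the 11 sense reads of replicate 2. The genes were chosen by antisense reads, by antisense share or after their values were seen, which favours this. Meiotic genes with more sense reads, such as mug114, are not drawn.

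Not every meiotic gene had an abundant antisense lncRNA. SPNCRNA.05 on mug121 had no read, SPNCRNA.200 on mug114 had 0 and 1, and SPNCRNA.715 on mug64 had 1 and 2, where the sense genes held 103 and 96, 774 and 880, and 544 and 637 reads. SPNCRNA.833 on mug105 held 21 and 18 reads against 190 and 188, a share of 4.1% and 3.5%. In these pairs the sense strand was the stronger one. mug121 overlaps SPNCRNA.646 on its own strand, which held 146 reads over both libraries, so its sense reads may belong in part to that feature.

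The position of the lncRNA on its sense gene was then considered. Members inside the sense gene were the lowest. The 145 of them had medians of 0.234 CPM per kb in replicate 1 and 0.236 in replicate 2, and shares of 7.23% and 6.27%. The 128 members that cover the whole gene had 0.716 and 0.714 CPM per kb and shares of 14.7% and 13.7%. The 309 that cover only its start had 0.553 and 0.558 and shares of 12.2% and 10.9%. The 178 that cover only its end had the highest medians, 0.811 and 0.732, with shares of 19.8% and 18.0%. Without the 3 most abundant members, which all cover only the end, the medians were 0.808 and 0.718.

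The count of pairs with the lncRNA above its sense gene per length in both libraries did not follow the same order. It was 30 of 126 among members on the whole gene (23.8%), 31 of 178 on the end (17.4%), 15 of 145 inside (10.3%) and 25 of 302 on the start (8.28%). The 111 members that stop short of the coding sequence had medians of 1.06 and 0.883 CPM per kb, against 0.526 and 0.489 for the 649 that reach it. Medians were also close at either distance from the nearest coding gene upstream on the same strand. The 126 members within 500 nt of such a gene had medians of 0.579 and 0.511 CPM per kb, and the other 634 had 0.583 and 0.573. Neither this nor the positions were tested, since members are not replicates.

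**Figure D4:**
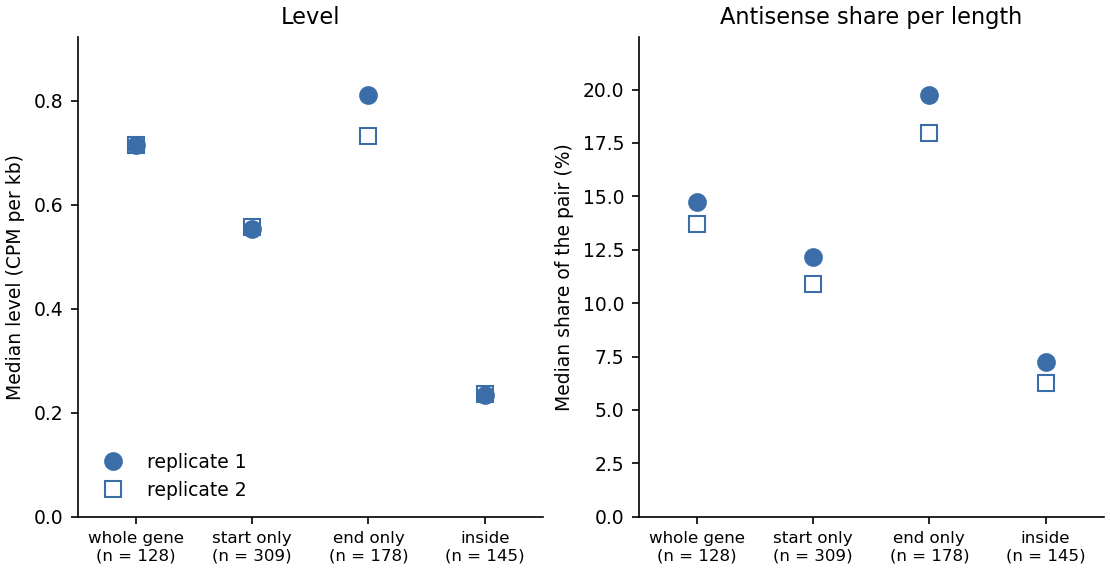
Median level (CPM per kb, left) and median antisense share of the pair (%, right) of lncRNAs that cover the whole sense gene, only its start, only its end, or lie inside it; filled circles are replicate 1 and open squares replicate 2, and n counts the lncRNAs. Members inside the gene are lowest in both panels, at 0.234 and 0.236 CPM per kb, and those on the end only are highest.

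The sequences of the members were searched for the Mmi1 hexamer. TNAAAC was counted on the RNA strand, with overlapping matches allowed. The 760 members held 2274 matches, or 1.94 per kb, and 664 of them (87.4%) had at least 1. Coding features held 1.77 per kb on their own strand and 2.02 per kb on the opposite strand, and 90.7% had at least 1 on their own strand. The lncRNAs that overlap no coding feature held 2.18 per kb. The density in the members was thus near that of the strand opposite coding genes in general, and it was 2.07 per kb in the stretches outside the sense gene.

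Levels were close at either density. The 380 members above the median density of 1.83 per kb had medians of 0.553 and 0.531 CPM per kb, and the other 380 had 0.592 in each library. Among members with at least 100 reads, the densest was SPNCRNA.1236, with 5 matches in 615 nt (8.13 per kb), of which 2 fall in the stretch shown above. That stretch was cut to hold them, so the genome-wide shares are given for reference and not as a comparison. Windows of this length, 68 nt, hold at least 1 match in 11.8% of 369756 windows over both strands of the genome, and 2 or more in 0.707%. It was followed by SPNCRNA.1651 (4.80 per kb), SPNCRNA.1336 on the end of sbp1 (4.34), with 48 and 59 reads against 714 and 704, SPNCRNA.1458 on the end of ebs1 (3.36), with 81 and 82 against 240 and 245, and SPNCRNA.872 (3.09). A match is not a binding site, and binding was not measured in these libraries.

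The genes of factors that remove such RNAs were read in both libraries. Among the 9 listed, pab2, the nuclear poly(A)-binding protein gene, was highest at 27.1 ± 1.34 CPM per kb (SD, n = 2). The exosome gene dis3 had 5.98 ± 0.473 and rrp6 had 2.01 ± 0.546, and mtl1, the gene of an RNA helicase that works with the exosome, had 3.99 ± 0.832. The exonuclease genes dhp1 and exo2 had 4.67 ± 0.499 and 4.42 ± 0.542. The RNA interference genes ago1 and dcr1 had 3.43 ± 0.408 and 1.45 ± 0.00620, and clr4, the gene of the histone H3 lysine methyltransferase of heterochromatin, had 1.70 ± 0.141. None of the 9 was called different between the libraries by the exact binomial test over all features, with Benjamini-Hochberg adjusted p from 0.118 for mtl1 to 1 for dcr1.

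The libraries were then compared with each other over the members. The exact binomial test (two-sided, Benjamini-Hochberg adjustment over all 6752 features with at least 10 reads) compares these libraries and not conditions. It called 5 of the 506 members tested (0.988%), of which 4 were higher in replicate 1 and the other in replicate 2. Over all features, 4.19% were called, 2.18% toward replicate 1 and 2.01% toward replicate 2. Of the members tested, 68 of 506 had 100 or more reads, against 4145 of 4941 coding features. How far this set the lower share of the members was not tested.

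The 4 lncRNAs higher in replicate 1 were the 4 most abundant. The log2 ratio of replicate 1 over replicate 2 was 0.33 for SPNCRNA.1511 (exact binomial test, adjusted p = 1.62e-59), 0.25 for SPNCRNA.814 (adjusted p = 5.73e-41), 0.23 for snoZ (adjusted p = 0.000189) and 0.10 for SPNCRNA.1651 (adjusted p = 0.0265). TMM factors and DESeq2 size factors also called all 4. SPNCRNA.1371 was higher in replicate 2, with a log2 ratio of -0.38 (adjusted p = 0.0249), and lost the call under TMM factors (adjusted p = 0.102) and DESeq2 size factors (adjusted p = 0.0935). With either set of factors 6 members were called, all 6 higher in replicate 1, with SPNCRNA.1042 and SPNCRNA.1626 in place of SPNCRNA.1371. No sense gene of the 5 members was called.

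The other members tested were not called, which does not show that they differed less. Across the 506 members with at least 10 reads, log2(CPM + 1) of the libraries gave Pearson's r = 0.969 and Spearman's rho = 0.886, against 0.994 and 0.989 over 4941 coding features. These describe this pair of libraries across features that share depth and preparation. The median absolute log2 ratio of the members was 0.31, a size near or above the ratios of the called members higher in replicate 1. The biological coefficient of variation, the spread between replicates beyond counting error, was 8.33% over the members and 5.07% over coding features (edgeR common dispersion). It rested on the abundant members, as it was 9.26% over those with 100 or more reads and 2.78% over those with 10 to 99, a division made after the data were seen.

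**Figure D5:**
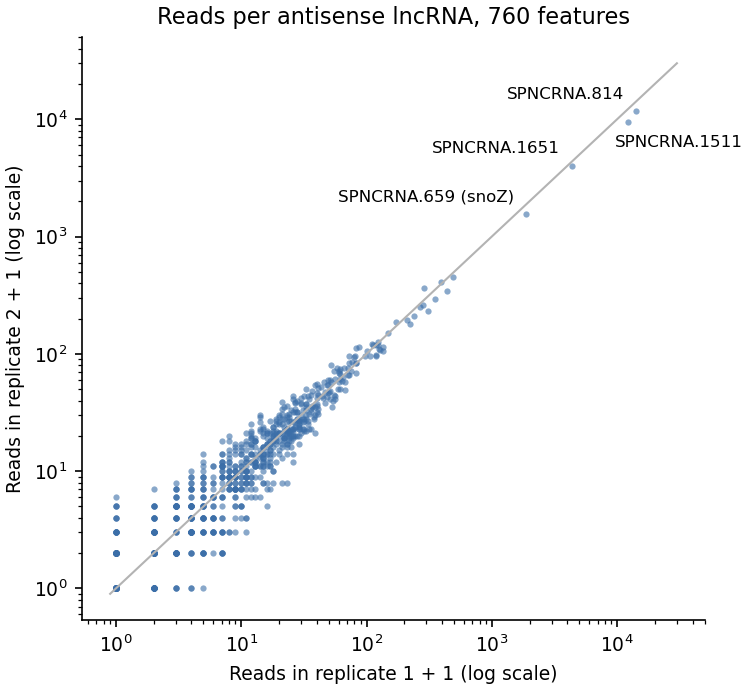
Reads of each of the 760 antisense lncRNAs in replicate 1 against replicate 2 (1 read added, log scales), with the line of equal reads. Points spread widely below 10 reads and lie close to the line above 100; the 4 members with 1000 or more reads, which are named, lie below the line, as all 4 had more reads in replicate 1.

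Members that carry a name of their own were mostly rare. The 22 named prl had a read for 13 in replicate 1 and for 15 in replicate 2, and none had 100 reads. Their median level was 0.105 CPM per kb in replicate 1 and 0.282 in replicate 2. rse1 (SPNCRNA.111) held 395 and 407 reads against 82 and 87 of cyc3, with which it overlaps by 25 nt only. meu16 (SPNCRNA.928) held 15 and 21 reads against 36 and 30 of mde6, and cti6-antisense-1 (SPNCRNA.1365) held 7 and 10 against 21 and 29 of cti6. Of the members with names other than prl, rse1, tos1, tos2 and snoZ were above their sense gene in both libraries, and meu16 and cti6-antisense-1 were below it in both.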

How the data were processed

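Direct RNA libraries of 2 replicates of 1 group were analysed. Per the study's methods, the authors used dorado (super accuracy mode) for base calling and minimap2 (splice setting) for mapping. For the counting tool and the build, the sources used here give no name. The deposited values are whole-number read counts per feature, not normalized. Rounding, the step that estimated counts would need, changed none of the deposited values. The header of the deposited table stands 1 cell off its data, and columns were aligned by content. The labels give biological replicates but no culture identifiers. The exact binomial p-values set the difference between these libraries against counting error alone and do not measure the spread between cultures.

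Members and lists were chosen with earlier results of these data known. Gene names, biotypes and sequences came from RefSeq ASM294v3. Levels are CPM over all counts, divided by feature length, introns included. Libraries were compared by a two-sided exact binomial test over features with at least 10 reads, with an expected share from library totals and Benjamini-Hochberg adjustment at 0.05. Log2 ratios add 0.5 to each count. The BCV came from edgeR 4.0.16 (R 4.3.3; DESeq2 1.42.0 for size factors); other steps used Python 3.11.15 and scipy 1.17.1. The binomial test was tested on simulated data. Alternatives covered scaling, count minimum, pseudocount, sense partner, overlap, own-strand overlap and each library alone.

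Named lncRNAs were the 12 highest per length, the 10 highest and 5 lowest shares among pairs with at least 100 reads, the called members (up to 5 per direction), the 5 pairs with the most abundant sense genes, the 5 densest in TNAAAC, the 8 most read on meiotic names, members with an own symbol, and 9 RNA decay and RNA interference genes. Others are said in the text to be chosen after their values were seen, as were mal1's other lncRNA, those named for snoRNA overlap and further pairs on meiotic names.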

Additional observations from a re-analysis of the deposited data

How the results depend on the processing

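No paired analysis was possible because only 1 group was sequenced. Settings on the named lists, on position and on the strand check, the division of the BCV by reads, and sense genes free of other features on their strand were added after seeing the data. Taking either library alone gave 684 to 703 members with a read, median levels of 0.562 to 0.583 CPM per kb (0.542 over the mean levels), shares of 11.8% to 13.3%, 114 to 117 pairs above, 20 to 21 meiotic pairs above, medians inside the sense gene of 0.234 to 0.236 and 0.869 to 1.03 antisense reads per 1000 sense reads. By construction, the median level was 1.39 CPM per kb with a total without rRNA, 2.06 with the total of coding genes and 0.912 over members with at least 10 reads. The median share, 12.3% over the mean shares, was 10.5% in pairs with at least 100 reads, which held 59 pairs above, and 9.25% with reads not divided by length, where 92 pairs were above. A pseudocount of 0.1 CPM gave Pearson's r = 0.939, 5 CPM gave 0.988, dropping the count minimum 0.975 and a minimum of 100 reads 0.992. The BCV was 7.57% with library totals, 9.26% with at least 100 reads and 2.78% with 10 to 99. Motif density was 2.07 per kb outside the sense gene, the median inside the sense gene 0.205 CPM per kb over members free of other features on their strand, and the strand check 1.24 per 1000 over sense genes free of them. The causes were not tested. Calls between the libraries stayed at 5 or 6. Depth limits the 215 members with 1 to 9 reads, tested only with no count minimum, and the 39 with none.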
